A study of Mus musculus with 7 samples.

Results

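The unfolded protein response (UPR) and the secretory machinery of the endoplasmic reticulum (ER) were examined in Tregs of aged and young mice. The genes were 38 named members of these pathways, picked by symbol from the deposited gene table. All 38 were present among the 25469 genes with a count in any library, and 37 of them passed the filter on low counts, which left 13904 genes to be tested. The exception was Chac1. RNA-sequencing had been run on splenic CD4+CD25+ cells that were enriched with magnetic beads. The aged group comprised 3 libraries of mice 18 months old and the young group 4 libraries of mice labelled as 8 weeks old (the study's text gives another age for the young mice). All were male C57BL/6 mice labelled WT, no library carried a treatment label, and no source says how many animals went into a library, so that the spread between libraries may be partly technical.

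Gene counts per library were 10734234 to 11244060 in the aged group and 12039894 to 13649310 in the young group, and 3 counts, taken as the limit of detection, were 0.21 to 0.302 CPM (the count per gene scaled to library size). The Treg markers Foxp3, Cd4 and Il2ra were detected in all 7 libraries, and of 8 Treg markers 1 (Cd3e) was called higher in aged mice and none lower (edgeR, adjusted p under 0.05, against 9.8% higher and 6.94% lower of all genes tested). Markers of other cells were present too. The summed level of 15 plasma cell markers was 13778 to 24914 CPM in the aged libraries and 5249 to 22280 CPM in the young ones, with young replicate 2 at the upper end of the young range, and 3 of the 15 (Igha, Ighg2b and Ighg2c) were called higher. The immunoglobulin gene Ighm was the largest part of this sum (6786 to 11100 CPM in aged and 3444 to 13531 CPM in young libraries). Sdc1, another of the 15, had a log2 fold change of 0.05 (edgeR, adjusted p = 0.93). No plasma cell or B cell marker was at 0 in any library, and of 10 B cell markers none was called, with sums of 1273 to 2507 CPM in aged and 1770.5 to 2808 CPM in young mice. Of 10 neutrophil markers 4 were called higher (682 to 5323 against 309 to 994 CPM). Of 10 monocyte or macrophage markers 1 was called higher and 4 lower (406 to 567 against 529 to 619 CPM). Of 8 plasmacytoid dendritic cell markers 6 were tested, with 1 called higher and 3 lower (211 to 257 against 285 to 388 CPM), and Klk1 was at 0 in at least 1 library. Of 8 erythroid markers none was called (13243 to 161051 against 12626 to 119949 CPM). Mitochondrially encoded genes took 5.08% to 10.7% of the counts in the aged and 2.63% to 3.23% in the young libraries. The part of these differences in the results on the 38 genes was not tested, and in such bulk samples fewer cells of a type and less RNA per cell cannot be told apart.

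Proteins that are secreted or placed in membranes are folded in the ER. When unfolded proteins build up there, the membrane sensors IRE1 (Ern1), PERK (Eif2ak3) and ATF6 are activated. IRE1 splices the messenger RNA of the transcription factor XBP1, PERK phosphorylates the translation factor eIF2alpha and thereby favours the synthesis of ATF4, and ATF6 is cut in the Golgi and moves to the nucleus. Their targets include chaperones, disulphide isomerases, the translocation channel and the ER-associated degradation (ERAD) machinery, which sends misfolded proteins to the proteasome. The pathway is best known in lymphoid tissue for antibody-secreting plasma cells, and T cells use it as well.

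XBP1 and ATF6 act on their targets through known promoter elements, and the matches are shown to set the members that hold an element beside their levels. Of the 38 members 9, Mzb1 among them, were left out of the promoter search, and Ero1l was matched by its synonym. Promoters (250 bases before to 50 bases after the start of the gene, RefSeq, GRCm38.p6) were taken for the other 29 members. They were searched on both strands for the ER stress response element (ERSE, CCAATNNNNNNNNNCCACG), for the related ERSE-II (ATTGGNCCACG), for CCACG alone, for TGACGTGG and its part TGACGTG, and for the C/EBP-ATF response element read by ATF4 (TGATGNAA), where N is any base. ERSE and ERSE-II contain CCACG, and TGACGTGG contains TGACGTG, so these counts overlap. A member counted when any of its promoters held the element, whereas the share of all promoters counts each promoter singly. Derl2 counted for CCACG although another promoter of it did not hold CCACG. The ERSE was present in 4 of 29 members (13.8%) against 0.119% of all 32851 promoters. ERSE-II was in 1 member (3.45% against 0.0365%), CCACG in 21 (72.4% against 32.8%) and TGATGNAA in 4 (13.8% against 3.97%). TGACGTGG and TGACGTG were in 0 members, against 0.676% and 2.01% of all promoters. These matches describe letters in a window and were not tested as binding sites. In the 4 ERSE matches below, read 5′ to 3′ on the strand that holds the element, capitals mark CCAAT and CCACG:
Creld2: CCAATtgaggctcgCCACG
Pdia6: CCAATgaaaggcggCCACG
Derl3: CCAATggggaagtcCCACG
Syvn1: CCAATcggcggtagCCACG

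They lie at -126 to -108, -98 to -80, -156 to -138 and -44 to -26 from the start site, and those of Creld2 and Derl3 are on the strand opposite the gene. The ERSE-II match of Herpud1 (-52 to -42) and the 4 TGATGNAA matches, with 4 bases on each side and the fixed letters in capitals, were as follows:
Herpud1 (ERSE-II): ATTGGgCCACG
Asns: cacaTGATGaAActtc
Chac1: ggagTGATGcAAcggc
Trib3: cggcTGATGtAAacct
Herpud1: gggcTGATGcAAcccg

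Of the 4 members that differed between the ages, 3 held CCACG in the promoter window and are printed whole on the strand of the gene, with CCACG, its reverse complement CGTGG and the CCAAT of an ERSE (or its reverse complement ATTGG) in capitals. They are Creld2 (chr15:88819396-88819695, plus strand), Pdia6 (chr12:17266339-17266638, plus strand) and Edem3 (chr1:151755124-151755423, plus strand). Manf, the remaining one, was not matched:
Creld2: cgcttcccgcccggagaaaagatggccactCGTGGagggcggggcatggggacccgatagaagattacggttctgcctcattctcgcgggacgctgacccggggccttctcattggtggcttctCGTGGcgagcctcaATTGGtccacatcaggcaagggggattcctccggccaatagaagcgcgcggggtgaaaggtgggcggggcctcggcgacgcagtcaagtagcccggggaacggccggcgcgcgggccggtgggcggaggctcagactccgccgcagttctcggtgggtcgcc
Pdia6: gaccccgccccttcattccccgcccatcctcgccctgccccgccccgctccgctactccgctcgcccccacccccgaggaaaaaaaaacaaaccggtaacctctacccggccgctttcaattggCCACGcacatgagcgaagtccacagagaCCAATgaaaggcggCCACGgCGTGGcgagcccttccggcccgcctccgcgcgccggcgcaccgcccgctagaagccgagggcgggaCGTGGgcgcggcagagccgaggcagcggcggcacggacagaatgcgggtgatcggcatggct
Edem3: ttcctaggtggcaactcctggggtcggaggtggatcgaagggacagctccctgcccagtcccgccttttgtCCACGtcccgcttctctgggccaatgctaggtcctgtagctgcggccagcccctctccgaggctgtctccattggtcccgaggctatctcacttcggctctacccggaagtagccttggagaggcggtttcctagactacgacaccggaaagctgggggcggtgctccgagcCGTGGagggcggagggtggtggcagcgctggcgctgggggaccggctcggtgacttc

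Creld2, Manf and Pdia6, which act in protein folding in the ER, were higher in aged mice, and Edem3, which marks misfolded glycoproteins for degradation, was lower. These 4 calls (edgeR, adjusted p under 0.05) were 10.8% of the 37 members tested, against 16.7% of all genes tested. The 3 higher members were 8.11% against 9.8% of all genes, and the 1 lower member 2.7% against 6.94%. Before adjustment, 13 members (35.1%) had a p under 0.05, against 32.7% of all genes. The share of called members was below that of all genes in this fit and above it in DESeq2 (21.1% against 17.6%), and neither difference was tested.

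The median log2 fold change was 0.03 over the members and 0.02 over all genes, with 20 members above 0 and 17 below. The median absolute log2 fold change was 0.21 for the members and 0.23 for the 10656 genes within their range of expression. In 10 members (27%, against 29.9% of all genes) the aged and young libraries did not overlap. Derl1, Creld2, Manf and Pdia6 were above in every aged library (10.8% against 15.5%). Ern1, Eif2ak3, Atf6, Atf6b, Edem3 and P4hb were below in every aged library (16.2% against 14.4%). The members were thus spread to both sides of 0.

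**Figure D1:**
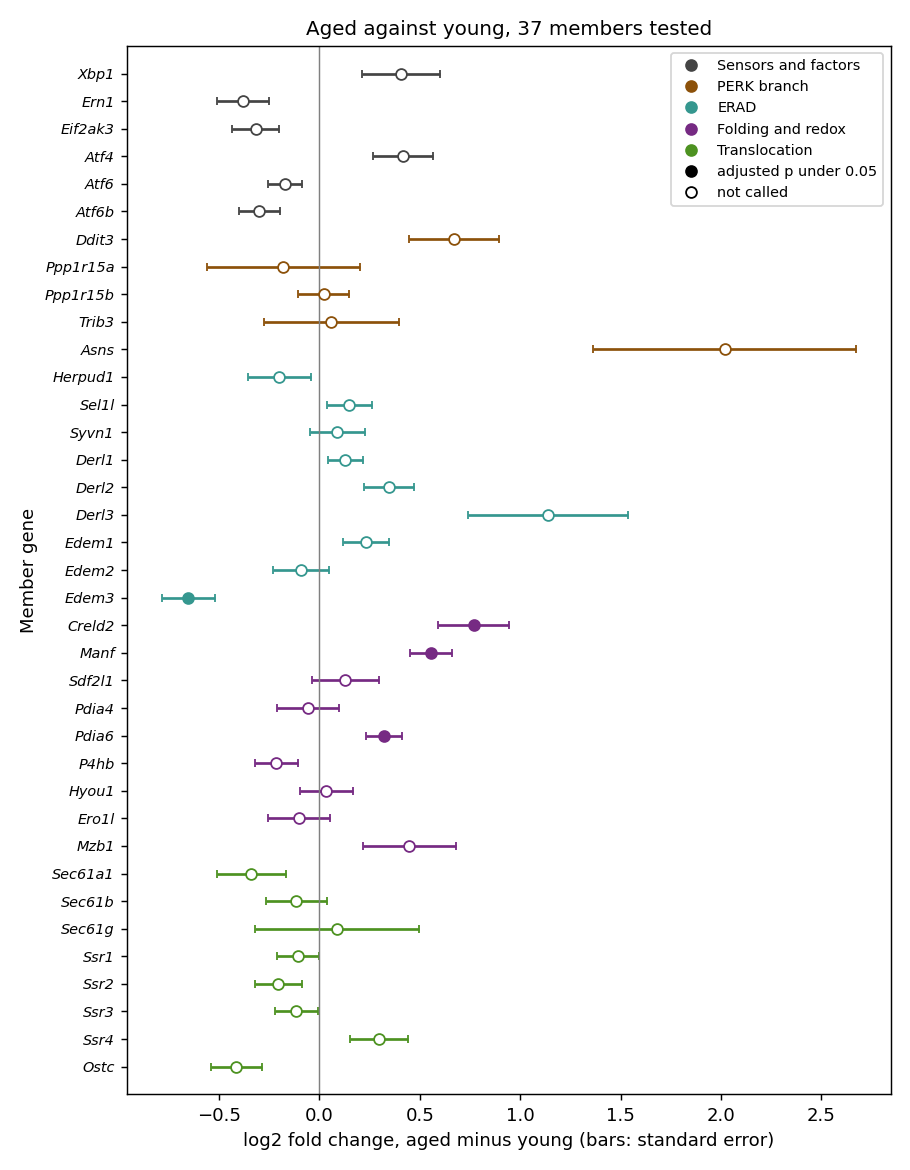
log2 fold change of aged against young Tregs for the 37 members tested, coloured by role, with bars for the standard error. Filled points are the 4 called members and open points the members not called. Most members lie near 0. Asns and Derl3 have the highest values (2.02 and 1.14) with wide bars and are not called, whereas Creld2, Manf and Pdia6 to the right and Edem3 to the left are.

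The count of called members changed with the libraries used. It was 8 without aged replicate 1 (21.6%, against 21.5% of all genes in that fit) and 7 without young replicate 2 (18.9% against 14.5%). It was 2 without young replicate 3 (5.41% against 9.28%) or young replicate 4 (5.41% against 9.03%). It was 3 without aged replicate 2 (8.11% against 12.2%) or young replicate 1 (8.11% against 9.58%). Without aged replicate 3 it was 4 (10.5% against 8.9%), of which Chac1 had passed the filter of that fit through its aged libraries alone. DESeq2 tested all 38 members and called 8 (21.1% against 17.6% of all genes it tested) and limma voom 4 (10.8% against 16.4%). After correction for trends with gene length and GC content, added after seeing the data, 6 were called (16.2% against 18.6%).

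Among the 9 folding and redox members, 3 were called higher and none lower (9.8% and 6.94% of all genes). Creld2, an ER disulphide isomerase induced by ER stress (chr15:88819646-88826683, GRCm38), had 38.8, 44.3 and 33.6 CPM in the aged libraries and 19.3, 30.1, 19.4 and 22.4 CPM in the young ones, here and throughout in the order of their replicate numbers. Every aged library was above every young one, and young replicate 2 was nearest to the aged libraries. Means were 38.9 ± 5.36 CPM (SD, n = 3) and 22.8 ± 5.05 CPM (SD, n = 4), and the difference was 0.77 on the log2 scale (SE 0.178, adjusted p = 0.023). The call was lost in the fits without aged replicate 2, young replicate 1, young replicate 3 or young replicate 4, where the log2 fold changes were 0.66, 0.70, 0.70 and 0.76 and the adjusted p 0.0667, 0.0601, 0.0645 and 0.0633. Its promoter holds the ERSE shown above.

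Manf, a small secreted protein of the ER that is released under stress (chr9:106838312-106891979), had 60.9, 75.8 and 59.9 CPM in the aged libraries and 42.4, 45.3, 43.04 and 47.4 CPM in the young ones. The groups did not overlap, with aged replicate 2 highest and the young libraries close together. Its mean was 65.5 ± 8.93 CPM (SD, n = 3) against 44.5 ± 2.3 CPM (SD, n = 4), and its log2 fold change was 0.56 (SE 0.106, adjusted p = 0.0109). Manf was called whichever library was left out (log2 fold changes 0.44 to 0.62). Of its exon length 9.25% overlaps other genes, where reads counted without strand cannot be assigned.

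For Pdia6, a protein disulphide isomerase (chr12:17266545-17284770), the levels were 144, 148 and 138 CPM in aged and 106, 119, 111 and 123 CPM in young mice. The ranges did not overlap, but the difference was the smallest of the called members. Aged mice had 143 ± 5.12 CPM (SD, n = 3) and young mice 115 ± 7.56 CPM (SD, n = 4), which is 0.32 on the log2 scale (SE 0.089, adjusted p = 0.0416). This call was lost whichever library was left out, with log2 fold changes of 0.29 to 0.36 and adjusted p from 0.0537 to 0.114. Like Creld2, Derl3 and Syvn1 it holds an ERSE.

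**Figure D2:**
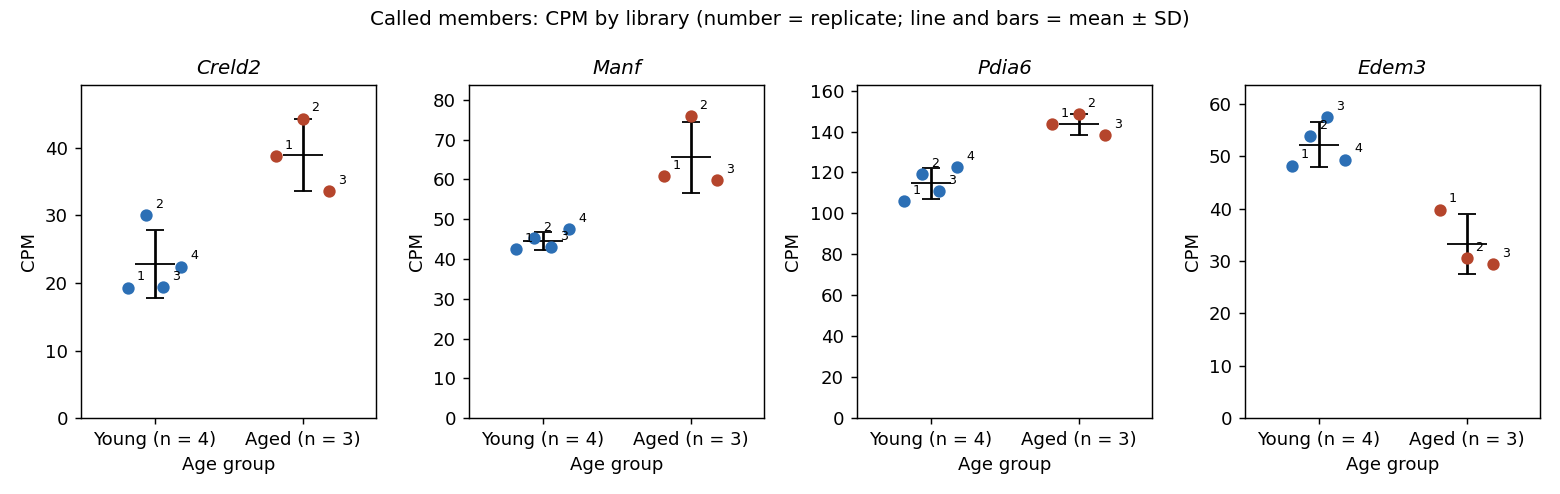
CPM of the 4 called members in each library (points, numbered by replicate), with the mean and SD of 4 young and 3 aged libraries, on axes from 0. Creld2, Manf and Pdia6 sit higher in all aged libraries, and Edem3 sits lower in all of them.

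The other 6 folding members were not called. The isomerases Pdia4 and P4hb had log2 fold changes of -0.06 and -0.21, the ER chaperone Hyou1 0.03, the co-chaperone Sdf2l1 0.13 and the oxidase Ero1l -0.10 (adjusted p from 0.209 to 0.888). P4hb was lower in every aged library. Mzb1, an ER factor of B cells and plasma cells that assists antibody secretion, had 67.01, 81.4 and 77.3 CPM in aged and 38.2, 82.1, 49.4 and 50.4 CPM in young mice. Young replicate 2 was as high as the highest aged library, while the other young libraries were below all of the aged ones. The log2 fold change was 0.45 (SE 0.231, adjusted p = 0.216), and without young replicate 2 it was 0.71 (adjusted p = 0.0153). Over the 7 fits that each left out 1 library (the leave-one-out range) the log2 fold change of Mzb1 was 0.31 to 0.71, and that of P4hb -0.25 to -0.14. In the GENCODE M21 annotation 57.2% of the exon length of Mzb1 overlaps the SPATA24 gene model, and reads on both would not be counted.

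Of the 9 ERAD members, 1 was called lower and none higher (6.94% and 9.8% of all genes). Edem3, a mannosidase-like protein that trims glycans on misfolded proteins (chr1:151755371-151822051), had 39.8, 30.5 and 29.4 CPM in aged and 48.2, 53.9, 57.4 and 49.4 CPM in young mice. All aged libraries were below all young ones. The mean was 33.2 ± 5.74 CPM (SD, n = 3) against 52.2 ± 4.23 CPM (SD, n = 4), and the log2 fold change was -0.65 with an SE of 0.131 (adjusted p = 0.0135). It was called without each library in turn (-0.81 to -0.57). Its relatives had log2 fold changes of 0.23 (Edem1) and -0.09 (Edem2) and were not called, with leave-one-out ranges of 0.15 to 0.30 and -0.24 to 0.0132.

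The Derlins form part of the channel through which proteins leave the ER. Derl1 had 93.9, 107 and 97.7 CPM in aged and 85.03, 92.1, 92.95 and 93.1 CPM in young mice. Its aged libraries were all above the young ones by a small margin (log2 fold change 0.13, SE 0.0861, adjusted p = 0.332, leave-one-out range 0.0764 to 0.17), and without aged replicate 2 the difference was 0.0764 (adjusted p = 0.609). Derl2 had 39.8, 53.8 and 50.3 CPM in aged and 36.01, 34.3, 39.3 and 40.9 CPM in young mice, with aged replicate 1 inside the young range. The difference was 0.35 (SE 0.125, adjusted p = 0.0913). Leaving out aged replicate 1 gave 0.46 (adjusted p = 0.0201), the upper end of a range of 0.26 to 0.46. For Derl3, a known XBP1 target whose promoter holds an ERSE and in young mice on average the least abundant of them per kilobase, the values were 10.9, 15.8 and 10.2 CPM in aged and 3.76, 10.5, 4.74 and 3.23 CPM in young mice. Young replicate 2 reached the aged range, and the other young libraries lay well below it. Derl3 had a log2 fold change of 1.14 (SE 0.398, adjusted p = 0.0858). Without young replicate 2 it was 1.65 (adjusted p = 0.0063), and DESeq2 called it. Its leave-one-out range was 0.92 to 1.65.

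Herpud1, a scaffold of the ERAD ligase complex whose promoter holds the ERSE-II, had 91.04, 97.3 and 93.6 CPM in aged and 94.2, 144, 97.3 and 95.9 CPM in young mice. Apart from young replicate 2, which was higher, all libraries lay close together. The log2 fold change of Herpud1 was -0.20 (SE 0.158, adjusted p = 0.427). Without young replicate 2 it was -0.0277 (adjusted p = 0.863). The ligase Syvn1, which holds an ERSE, and its partner Sel1l had log2 fold changes of 0.09 and 0.15, with adjusted p of 0.694 and 0.4 and leave-one-out ranges of -0.018 to 0.18 and 0.0917 to 0.25.

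None of the 6 sensors and transcription factors was called by edgeR, DESeq2 or limma voom, and 4 of them had an unadjusted p under 0.05 in edgeR (32.7% of all genes). Ern1, which encodes the sensor IRE1, had 24.4, 21.8 and 20.5 CPM in aged and 33.6, 28.2, 28.7 and 25.1 CPM in young mice. Eif2ak3, which encodes PERK, had 36.2, 28.8 and 38.1 CPM in aged and 44.5, 40.3, 41.9 and 44.5 CPM in young mice. In both genes every aged library was below every young library. The log2 fold changes were -0.38 for Ern1 (SE 0.131, adjusted p = 0.0833) and -0.32 for Eif2ak3 (SE 0.116, adjusted p = 0.099), with leave-one-out ranges of -0.45 to -0.30 and -0.39 to -0.21. Eif2ak3 was nearest to 0 without aged replicate 2, its lowest library, at -0.21 (adjusted p = 0.224).

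Atf6 showed 58.01, 49.4 and 54.6 CPM in aged and 62.7, 58.6, 61.1 and 60.9 CPM in young mice. Atf6b, its paralogue, showed 49.7, 59.6 and 49.3 CPM in aged and 60.6, 68.1, 63.3 and 67.9 CPM in young mice. Both were lower in all aged libraries, and neither difference passed the threshold. They amounted to -0.17 for Atf6 (SE 0.0853, adjusted p = 0.204) and -0.30 for Atf6b (SE 0.0996, adjusted p = 0.0756). Without aged replicate 2 Atf6 was -0.11 (adjusted p = 0.427). Atf6b was called without that library, at -0.39 (adjusted p = 0.0376), and its leave-one-out range was -0.39 to -0.25. The fitted aged level was 0.814 times the young level for Atf6b, 0.888 for Atf6, 0.803 for Eif2ak3 and 0.769 for Ern1.

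The transcription factors downstream had log2 fold changes above 0 without being called. Xbp1, the target of IRE1, had 133, 129 and 115 CPM in aged and 80.7, 136, 79.5 and 83.6 CPM in young mice. Young replicate 2 was the highest of the 7 libraries, and the remaining young libraries were below all aged ones. Over all libraries its log2 fold change was 0.41 (SE 0.194, adjusted p = 0.185). Without young replicate 2 it was 0.63 (adjusted p = 0.00733), in a leave-one-out range of 0.33 to 0.63. Gene counts do not separate the spliced from the unspliced form of Xbp1. Atf4, which is regulated mainly at translation, had 209, 303 and 257 CPM in aged and 204, 189.8, 161 and 213 CPM in young mice, with overlap at aged replicate 1. Its log2 fold change was 0.42 (SE 0.15, adjusted p = 0.0939). Leaving out aged replicate 1 gave 0.54 (adjusted p = 0.0307), and leaving out aged replicate 2, the highest library, gave 0.28 (adjusted p = 0.259).

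**Figure D3:**
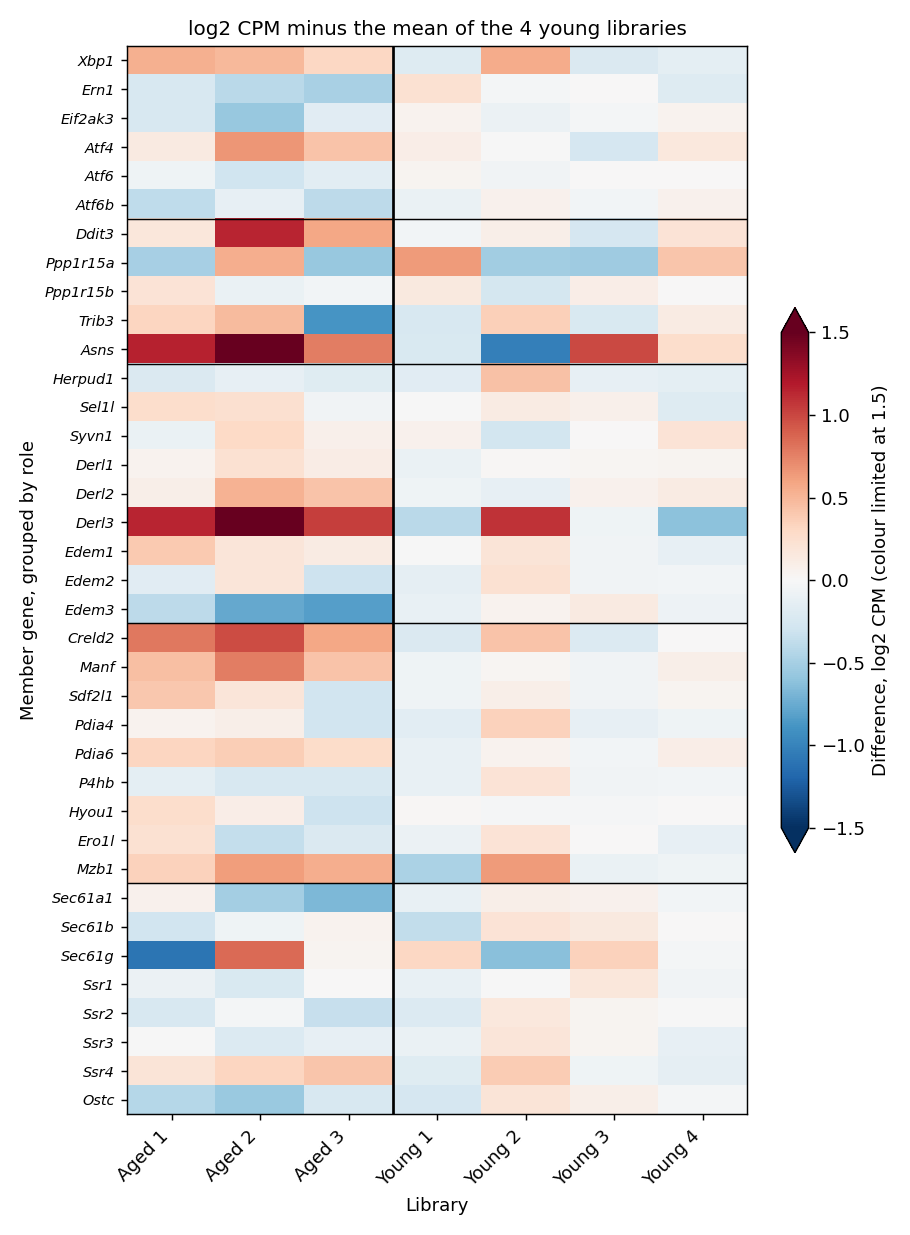
log2 CPM of each member in each of the 7 libraries minus its mean over the 4 young libraries, grouped by role, with the colour limited at 1.5. Young replicate 2 is above the other young libraries in Xbp1, Derl3, Mzb1 and Herpud1 and below them in Asns and Sec61g. Aged replicate 2 stands out in Asns and is also the highest aged library in Ppp1r15a and Sec61g.

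Of the 6 effectors of the PERK branch, 5 passed the filter and none of these was called by edgeR or limma voom, with 2 at an unadjusted p under 0.05 in edgeR (32.7% of all genes). DESeq2, which tested all 6, called 2 of them, Ddit3 and Chac1 (17.6% of all genes it tested were called). Ddit3, which encodes the stress-induced factor CHOP, had 17.2, 33.7 and 23.02 CPM in aged and 14.9, 16.3, 12.9 and 17.7 CPM in young mice, with aged replicate 1 within the young range and aged replicate 2 highest. The log2 fold change of Ddit3 was 0.67 (SE 0.223, adjusted p = 0.073). Leaving out aged replicate 1 gave 0.87 (adjusted p = 0.0183), and leaving out aged replicate 2 gave 0.38 (adjusted p = 0.212). Asns, an asparagine synthetase under ATF4 control, is named because of its values. It had 22.9, 101 and 17.5 CPM in aged and 8.74, 5.05, 20.5 and 12.3 CPM in young mice, so that aged replicate 2 was several times above all others and aged replicate 3 lay within the young range. The log2 fold change of Asns was 2.02 (SE 0.654, adjusted p = 0.0679). Leaving out aged replicate 2 reduced it to 0.80 (adjusted p = 0.296), and leaving out aged replicate 1 gave 2.35 (adjusted p = 0.0461). Without a filter edgeR called Asns as well, at 2.00 (adjusted p = 0.0295).

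Chac1, a glutathione-degrading enzyme induced by ATF4, did not pass the filter on low counts of the main comparison. It had 24, 15 and 6 counts in aged and 4, 7, 4 and 5 in young mice, which is 2.1, 1.51 and 0.561 CPM and 0.35, 0.49, 0.316 and 0.358 CPM. On the CPM scale all aged values were above the young ones, but the count of aged replicate 3 was below that of young replicate 2. The fits that kept Chac1 called it higher, with a log2 fold change of 1.85 (adjusted p = 0.0388) in DESeq2 and 1.82 (adjusted p = 0.0439) in edgeR without a filter. It was also called in edgeR without aged replicate 3, but there it had passed the filter only through the aged libraries, where it was high, so that this call is not independent of the filter. The phosphatase subunits Ppp1r15a and Ppp1r15b, which reverse the phosphorylation of eIF2alpha, had log2 fold changes of -0.18 and 0.02, and the pseudokinase Trib3 0.06. The sign of each changed under some alternatives.

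None of the 8 translocation and glycosylation members was called by edgeR or limma voom. In edgeR 1 of them had an unadjusted p under 0.05 (32.7% of all genes). DESeq2 called 1 of the 8, Ostc (17.6% of all genes it tested were called). Ostc, a subunit of the oligosaccharyltransferase, had a log2 fold change of -0.41 (SE 0.128, adjusted p = 0.0591), and it was called without young replicate 1 at -0.49 (adjusted p = 0.0449), in a leave-one-out range of -0.50 to -0.34. The channel subunits Sec61a1, Sec61b and Sec61g had -0.34, -0.11 and 0.09, and Sec61a1 was -0.60 (adjusted p = 0.00811) without aged replicate 1 and -0.19 (adjusted p = 0.516) without aged replicate 3. The translocon-associated subunits Ssr1, Ssr2 and Ssr3 had -0.10, -0.20 and -0.11 (leave-one-out ranges -0.16 to -0.0427, -0.30 to -0.13 and -0.17 to -0.0508). Ssr4 was the exception in sign with 0.30 (adjusted p = 0.196), and it was 0.44 (adjusted p = 0.0237) without young replicate 2, in a leave-one-out range of 0.24 to 0.44. Their median was -0.11, against 0.02 over all genes.

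In several members 1 young library stood apart from the other 3. Young replicate 2 was the highest young library in 20 of 37 members (54.1%, against 35.8% of all genes), and in 14 of 15 plasma cell markers and all 8 Treg markers. Among the plasma cell markers young replicate 2 was 0.942 (Pou2af1) to 9.48 (Ighg3) times the mean of the other young libraries. It was 1.07 times that mean in Tnfrsf13b and 1.11 in Slamf7. It was the highest in 0 of 10 B cell markers, and its erythroid markers summed to 12626 CPM against 62982 to 119949 CPM in the other young libraries. Young replicate 1 was the lowest young library in 19 of 37 members (51.4%, against 24.7% of all genes), and aged replicate 2 was the highest aged library in 19 of 37 (51.4%, against 33.6%). The joining chain Jchain, a plasma cell marker, had 477, 771 and 1044 CPM in aged and 179, 1725, 343 and 256 CPM in young mice, and the plasma cell surface protein Sdc1 had 12.4, 12.3 and 11.4 CPM in aged and 6.99, 20.3, 10.03 and 8.96 CPM in young mice. In both markers young replicate 2 was the highest of all 7 libraries, as in 7 of the 15. In the other 8, among them Igha, Ighg2b and Ighg2c, another library was higher, and the sum of the 15 was highest in aged replicate 2 (24914 CPM, against 22280 CPM in young replicate 2). Young replicate 2 was also the lowest young library in 7 of 37 members (18.9%, against 27.1% of all genes). Relative to the mean of the other young libraries, it was 2.69 times as high in Derl3, 1.79 in Mzb1 and 1.67 in Xbp1. In Herpud1 it was 1.5 times as high, in Creld2 1.47 and in Ssr4 1.42. In the other direction it was 0.365 times as high in Asns, 0.558 in Sec61g and 0.582 in Ppp1r15a. For Manf it was 1.02, for Pdia6 1.05 and for Edem3 1.04, so that these called members were near the level of the other young libraries. The part of plasma cell RNA in these values was not tested.

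**Figure D4:**
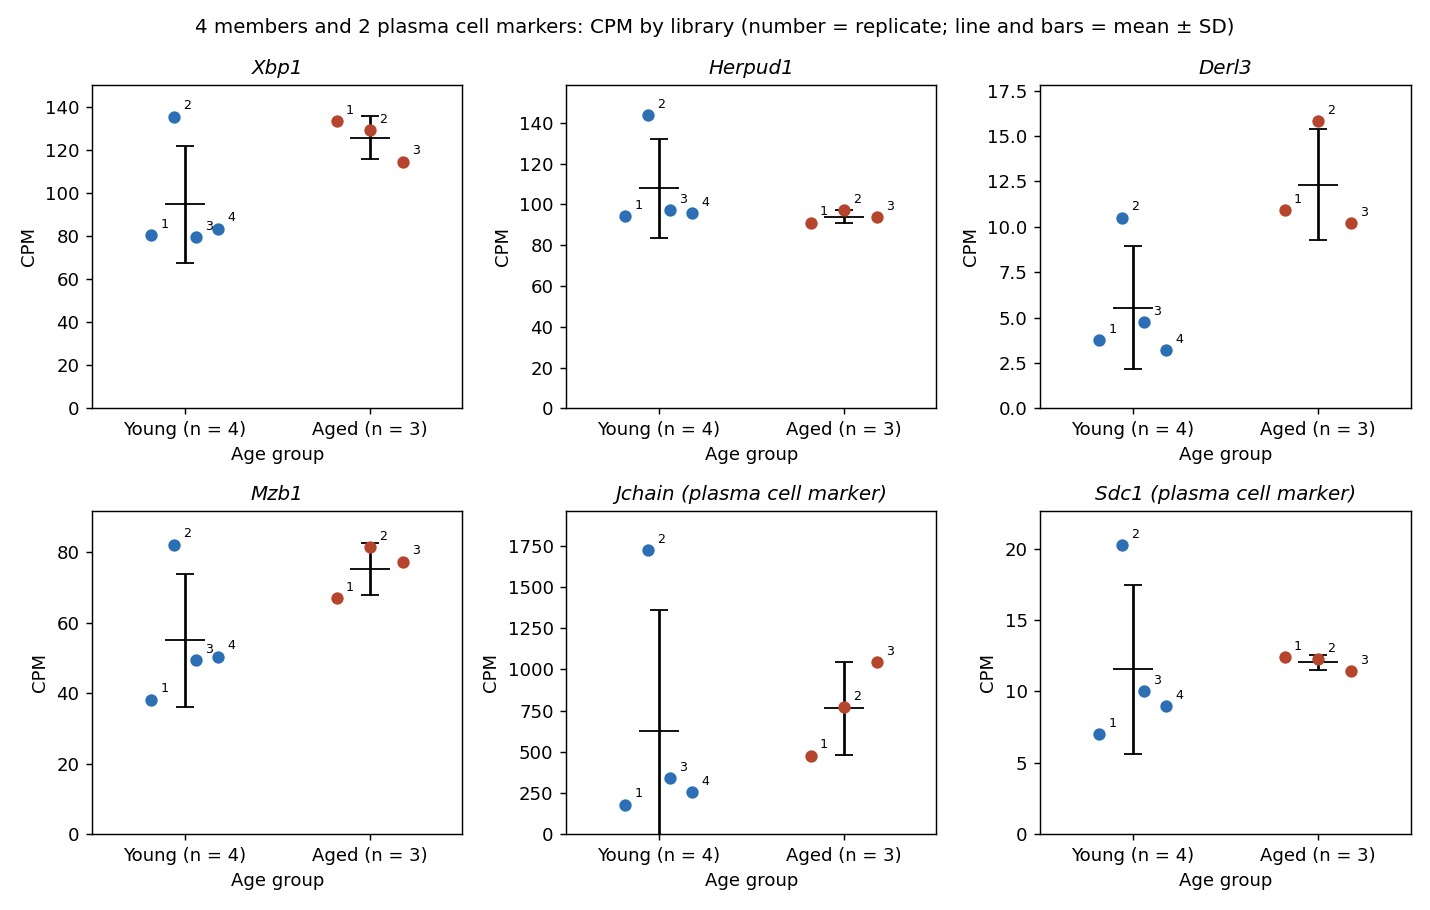
CPM by library for 4 members (Xbp1, Derl3, Mzb1 and Herpud1) and the plasma cell markers Jchain and Sdc1, with points numbered by replicate, the mean and SD of each age, and axes from 0 that cut off the part of an SD bar below 0. In each of the 6 panels the highest young point is replicate 2.

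Levels were compared between genes per kilobase of exon. In young mice Ppp1r15a was the highest at 175 CPM per kilobase on average, followed by P4hb at 87.8, Atf4 at 81.4 and Pdia4 at 68.6. The libraries of these 4 genes overlapped in the order (113 to 256 for Ppp1r15a, 80.9 to 101 for P4hb, 68.2 to 90.3 for Atf4 and 60.7 to 86.2 for Pdia4), except that Ppp1r15a was above P4hb throughout. The lowest means were those of Chac1 at 0.231, Trib3 at 1.73, Derl3 at 2.79 and Ern1 at 3.53. Chac1 was below the others in all young libraries, but the range of Derl3 (1.62 to 5.27), highest in young replicate 2, overlapped those of Trib3 (1.44 to 2.18), Ern1 (3.07 to 4.11) and Asns (1.84 to 7.48). The spread between libraries also differed. The median coefficient of variation of the 37 members was 13.5% in aged and 11.4% in young mice, against 14.4% and 10.2% for genes in the same range of expression. Asns varied most in aged mice (99.3%) and Derl3 in young mice (60.5%), whereas Herpud1 (3.34%) and Hyou1 (1.32%) varied least.

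**Figure D5:**
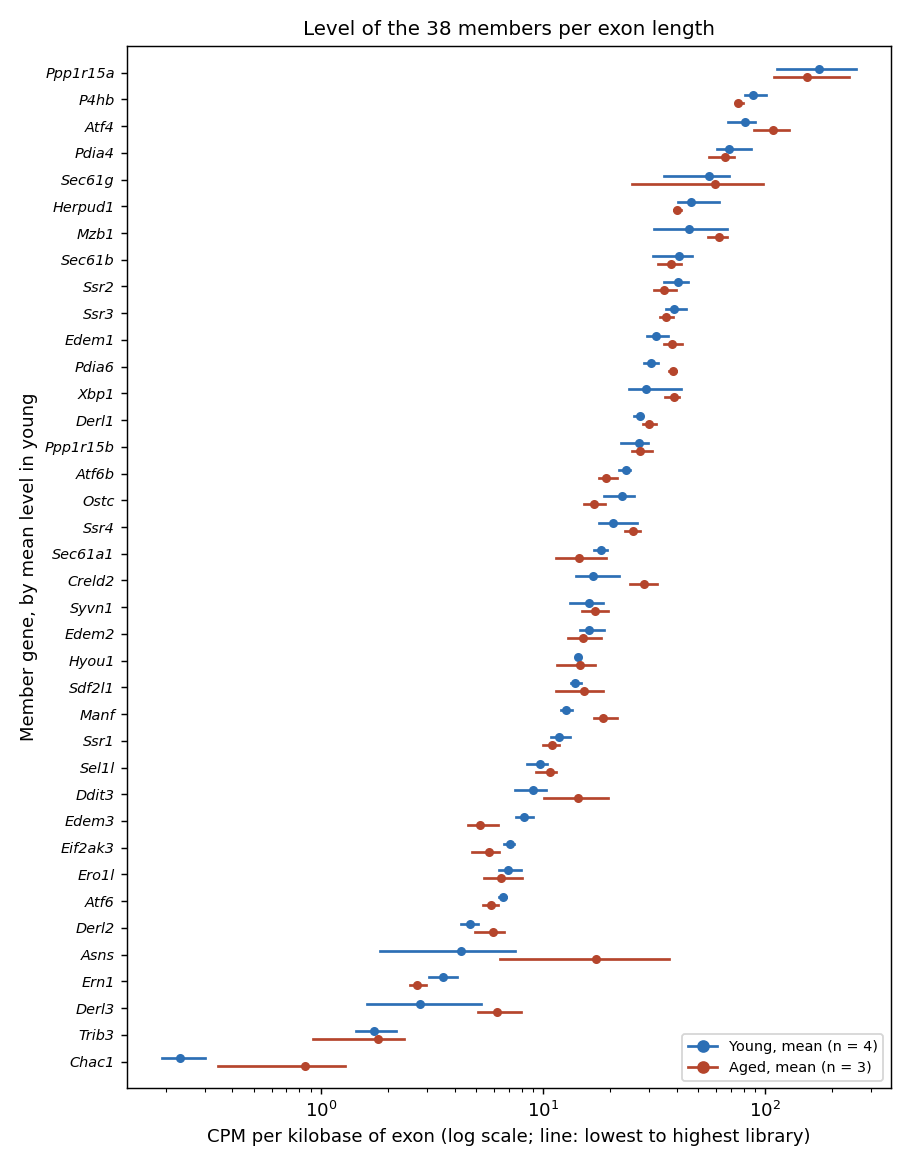
CPM per kilobase of exon (log axis) of each member, with the mean of the 4 young and of the 3 aged libraries and lines for the lowest and highest library. The levels run from Chac1, below 1 CPM per kilobase in young mice, to Ppp1r15a, above 100.

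Other genes of the ER and of the integrated stress response were read out from the same fit. Of 159 listed symbols 152 were found and 148 tested, and 13 (8.78%, against 16.7% of all genes) were called, with 5 higher and 8 lower. The count was 25 without aged replicate 1, 6 without aged replicate 3, 7 without young replicate 1, 6 without young replicate 3 and 8 without young replicate 4, where 21.5%, 8.9%, 9.58%, 9.28% and 9.03% of all genes were called. The list related to ATF4 held 6 of these calls, with 3 of 25 genes higher and 3 lower (24% called, against 16.7% of all genes). Leaving out young replicate 1 alone lost the calls of Cebpb, Ddit4 and Nupr1. The calls of Slc7a11, Gpt2 and Aldh18a1 were kept whichever library was left out.

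In that list the cystine transporter Slc7a11 had 1.83, 2.22 and 2.15 CPM in aged and 0.787, 0.771, 0.79 and 0.645 CPM in young mice (log2 fold change 1.45, SE 0.258, adjusted p = 0.0083). The transcription factor Cebpb had 4.63, 3.73 and 7.86 against 1.92, 2.31, 1.5 and 2.29 CPM (1.42, SE 0.305, adjusted p = 0.0172). Both were higher in all aged libraries. The alanine transaminase Gpt2 had 0.699, 1.01 and 0.936 against 2.88, 3.15, 2.45 and 3.23 CPM (-1.73, SE 0.266, adjusted p = 0.00471), and Ddit4, an inhibitor of mTORC1, 47.97, 99.1 and 36.96 against 142, 136, 131 and 151 CPM (-1.19, SE 0.299, adjusted p = 0.0301). These were lower in all aged libraries. Slc7a11 and Gpt2 were called whichever library was left out. Cebpb lost its call without aged replicate 3, young replicate 1 or young replicate 3, and Ddit4 without aged replicates 1 or 3 or young replicates 1, 3 or 4 (adjusted p up to 0.0569 and 0.077).

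Of 27 genes of COPII vesicles and ER-Golgi carriers, 2 were higher and none lower (7.41% called, against 16.7% of all genes, with 9.8% higher and 6.94% lower). Preb, which activates the small GTPase of these vesicles, had 97.6, 117 and 104 against 74.8, 76.5, 69.7 and 74.3 CPM (0.52, SE 0.0911, adjusted p = 0.00768), and the coat subunit Sec24c had a log2 fold change of 0.32 (SE 0.0864, adjusted p = 0.0385). Of 23 ER folding factors 2 (8.7%, against 6.94% of all genes) were lower, the prolyl isomerase Ppib (-0.59, SE 0.162, adjusted p = 0.0402) and the thioredoxin domain protein Txndc11 (-0.37, SE 0.108, adjusted p = 0.0478), and limma voom called 0 of the 23, with a lowest adjusted p of 0.052 and 3 at an unadjusted p under 0.05 (32.4% of all genes). Of 28 genes of signal peptide handling and N-glycosylation 1 (3.57%, against 6.94%) was lower, the oligosaccharyltransferase subunit Magt1 (-0.54, SE 0.114, adjusted p = 0.0165). Among 21 other UPR factors 2 (9.52%, against 6.94%) were lower, the cell death genes Bcl2l11 (46.6, 38.1 and 38.1 against 79.6, 85.4, 73.2 and 67.2 CPM, -0.90, SE 0.12, adjusted p = 0.00258) and Bbc3 (-0.56, SE 0.16, adjusted p = 0.0472). None of 24 ERAD ligases and extraction factors was called by edgeR, DESeq2 or limma voom, and 2 (8.33%, against 32.7% of all genes) had an unadjusted p under 0.05 in edgeR. Preb and Bcl2l11 were called whichever library was left out. Magt1 lost its call without aged replicate 3 or young replicate 3, and Ppib without aged replicates 2 or 3 or young replicates 2, 3 or 4. The calls of Txndc11, Sec24c and Bbc3 were lost in 6 of the 7 fits, all but that without aged replicate 1 for Txndc11 and Sec24c and all but that without aged replicate 2 for Bbc3, with adjusted p up to 0.145.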

How the data were processed

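The authors deposited raw read counts per Ensembl gene for each library, which in layout and name are those of HTSeq-count (union mode, without strand). The submitters' processing notes name the build mm10. The aligner and annotation are not given in the sources used here. Lines for reads on no gene or several genes (13.1% to 20.9%) were left out. The authors also deposited a signal table of counts over 1 size factor per library, checked against the counts and used only for symbols, and in it their own log2 fold change and p-value columns, which carry the column names of DESeq2 output and were not used. Ages were compared in R 4.3.3 by the quasi-likelihood test of edgeR 4.0.16, after TMM normalization and filterByExpr by group, with Benjamini-Hochberg adjustment over 13904 genes. A gene was called at an adjusted p under 0.05. The study's methods name limma, and both limma voom and DESeq2 were run as alternatives. SEs were obtained by dividing the log2 fold change by the square root of F. CPM are on the TMM scale, and fold changes are aged over young. Coordinates and lengths are of GENCODE M21 (GRCm38), matched by identifier. Alternatives were DESeq2 1.42.0, limma voom (limma 3.58.1), RLE, library size only, mitochondrial, immunoglobulin and haemoglobin genes left out, no filter, at least 10 counts in every library, a replicate block, each library left out in turn and a minimum log2 fold change of 1 in either direction. Removal of GC content and gene length trends was added after seeing the data. Members and lists were chosen with earlier results of these data known. Genes given library by library are the called members and Xbp1, Ern1, Eif2ak3, Atf4, Atf6, Atf6b, Ddit3, Herpud1, Mzb1 and Derl1 to Derl3. Asns and Chac1 were added after their values were seen. Of each further list, up to 2 called genes with the largest rise and 2 with the largest fall were named. Nupr1 and Aldh18a1 were named in addition, for their calls with 1 library left out. Limits of detection cover counting error only.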

Additional observations from a re-analysis of the deposited data

Results flagged for a closer look

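In the young group, the gap of the highest or lowest of the 4 libraries to the nearest other one, over the whole range, passed Dixon's 95% critical value in 4 of 37 members. Chance flags about 1 in 20 such groups. The share flagged among all genes was not computed, so an excess among the members was not tested. Young replicate 2 was apart above the others in Herpud1 (0.938 of the range), Xbp1 (0.928) and Pdia4 (0.8292), and young replicate 1 was apart below them in Derl1 (0.881). The aged group, with 3 libraries, was not tested in this way.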

How the results depend on the processing

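Of 592 results of the 37 members tested, under the 16 alternatives other than the minimum fold change, 532 kept their sign and side of the threshold, 17 lost a call, 17 gained one and 26, in 10 members, changed sign without a call. No called member changed sign. Edem3 and Manf were called under 15 of these 16 alternatives (all but the replicate block), Creld2 under 11 and Pdia6 under 6. DESeq2 called 8 members, 6 higher and 2 lower. Removing GC content and gene length trends gave 3 lower members, with Atf6b and Ostc added. With each library left out, members called were 2 to 8 (1 to 6 higher, 1 to 2 lower), other ER genes 6 to 25 and all genes 1237 to 3058. A minimum log2 fold change of 1 in either direction left 0 members (0 higher, 0 lower), 5 other ER genes and 1016 genes. Same-numbered libraries did not deviate together (correlations -0.09, -0.29 and -0.14), so no pairing by number was seen. Whether same-numbered libraries shared a preparation was not tested. With the replicate block, edgeR called 0 members (0 higher, 0 lower, and 10 with an unadjusted p under 0.05), 1 other ER gene and 292 genes. The causes of these changes were not tested. The members whose sign changed had these log2 fold changes: under DESeq2 Ppp1r15b -0.00107, under limma voom Trib3 -0.0383, Sec61g -0.0691, under library size only Ppp1r15b -0.0355, Trib3 -0.0231, Hyou1 -0.0324, Sec61g -0.0200, under no filter Ppp1r15b -7.02e-05, under the replicate block Sec61g -0.0943. With each library left out, the log2 fold change ran from -0.64 to 0.0627 in Ppp1r15a, -0.0798 to 0.0805 in Ppp1r15b, -0.18 to 0.38 in Trib3, -0.018 to 0.18 in Syvn1, -0.24 to 0.0132 in Edem2, -0.0359 to 0.30 in Sdf2l1, -0.12 to 0.0732 in Pdia4, -0.0968 to 0.18 in Hyou1, -0.29 to 0.0134 in Ero1l, -0.47 to 0.45 in Sec61g. Depth limits Chac1, with 4 to 24 counts per library. It was left out by the filter and called higher by DESeq2 and with no filter. Without aged replicate 3 it passed the filter only through the aged group where it was high.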
